A study of Homo sapiens with 6 samples.

Results

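Expression of the AP-1 and EGR immediate early transcription factor genes was examined in AGS, an established cell line from a human gastric adenocarcinoma, after silencing of CTNNB1, the gene of beta-catenin. The members were named by symbol: the FOS family (FOS, FOSB, FOSL1 and FOSL2), the JUN family (JUN, JUNB and JUND) and the EGR family (EGR1, EGR2 and EGR3). Of these 10 genes, 9 had a transcript cluster paired with exactly 1 gene symbol, out of 18417 genes in all, and each had 1 such cluster. EGR2 is not analysed here. The study compared cells transfected with CTNNB1 siRNA with cells transfected with a non-targeting control siRNA, both Dharmacon reagents, with RNA extracted 48 hours after transfection. Both groups were unsorted cultures of the same line without any other treatment. Each group held 3 arrays that the titles call biological replicates. No label ties them to separate cultures, so the p-values here reflect only how far these samples differ, which may be technical. Values are log2 expression after RMA on the Affymetrix Human Gene 1.0 ST array.

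FOS and JUN proteins pair through leucine zippers to form AP-1, a transcription factor, whereas EGR proteins bind GC-rich DNA through zinc fingers. Their genes are immediate early genes, which MAP kinase signalling switches on without new protein synthesis and whose mRNAs are mostly short-lived. JUN and FOSL1 have been described as targets of beta-catenin and TCF in intestinal tumour cells.

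CTNNB1 itself stood at 11.92, 11.76 and 11.75 in the controls (replicates 1 to 3, the order used throughout). After CTNNB1 siRNA it stood at 10.27, 10.78 and 10.58, and each silenced array lay below each control. Epithelial and gastric markers had mean levels of 6.85 to 12.35 over their 9 genes. These markers were themselves higher after CTNNB1 siRNA for 8 of 9, with a median log2 difference of 0.51, and 0.36 without the first replicate of both groups. The groups did not overlap for 4 of them, TFF1 (1.79), KRT19 (0.96), MUC1 (0.82) and CLDN4 (0.67), against 13.6% of all clusters. The part of these markers in the results was not tested. The blood cell marker PTPRC averaged 2.69 and the fibroblast marker DCN 2.56. The marker lists of other cell types, as mean log2 levels per array, lay at 4.69 to 4.86 in control and 4.82 to 5.09 in CTNNB1 siRNA arrays for 4 immune genes, and at 4.49 to 4.59 and 4.58 to 4.75 for 8 fibroblast and endothelial genes. The brightest of these genes were CD68, a lysosomal protein gene, at 8.27 and COL1A1 at 6.74. The part of these 2 lists was not tested either. CTNNB1 siRNA replicate 1 stood apart. Over all clusters it correlated with the other arrays at 0.962 to 0.965, whereas the other pairs reached 0.983 to 0.988. Control siRNA replicate 1 was the lowest control for several members, as given below, so values are also given without both of these arrays.

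No member passed the threshold. In limma, 0 of 9 members had an adjusted p under 0.05, and 1 of the 19460 clusters tested did (0.00514%). That cluster was higher after CTNNB1 siRNA and was not CTNNB1. CTNNB1 differed by -1.27 (SE 0.17, adjusted p = 0.232 in limma), so the silenced gene itself also missed this threshold. At an unadjusted p under 0.05, 3 members were higher (FOS, JUND and JUN) and 0 were lower, where 5.64% of all clusters had such a p, 3.04% higher and 2.6% lower. The groups did not overlap for FOS and JUND, which were higher, or for EGR3, which was lower. Among all clusters 13.6% did not overlap, 6.81% higher and 6.8% lower. The members were chosen with earlier results of these data known, so setting them beside these shares is no test. In all, 7 members were higher on average and 2 lower, with a median log2 difference of 0.43, against -0.0045 over all clusters. Leaving out control siRNA replicate 1 lowered this median to 0.17, and leaving out the first replicate of both groups to 0.27. With 3 arrays against 3, a 2-sided exact permutation p cannot fall below 0.1, so that test could not reach the threshold for any member.

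**Figure D1:**
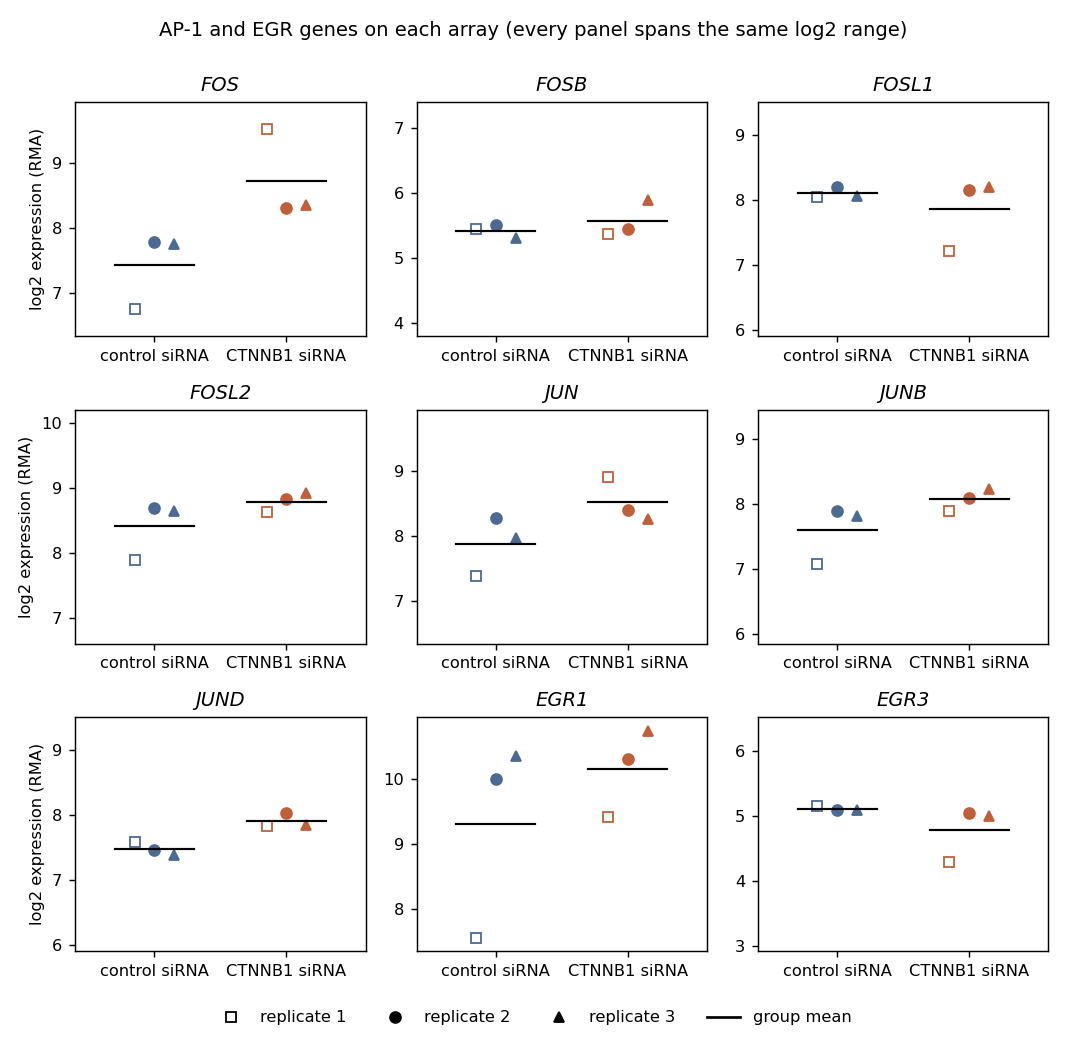
Log2 expression (RMA) of 9 AP-1 and EGR genes on each array, with control siRNA at left and CTNNB1 siRNA at right; open squares are replicate 1, circles replicate 2, triangles replicate 3 and black lines group means. The groups are fully apart for FOS, JUND and EGR3, and control siRNA replicate 1 lies at least 0.5 below both other controls for FOS, FOSL2, JUN, JUNB and EGR1; levels of different genes are not comparable.

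FOS encodes the prototype AP-1 subunit that cannot pair with itself and acts with a JUN partner. Its level was 6.76, 7.79 and 7.76 in the controls and 9.52, 8.30 and 8.36 after CTNNB1 siRNA. Every silenced array was above every control, with the lowest value on control siRNA replicate 1 and the highest on CTNNB1 siRNA replicate 1. The means were 7.44 ± 0.59 (SD, n = 3) and 8.73 ± 0.69 (SD, n = 3). This was a log2 difference of 1.29 (SE 0.39, 95% confidence interval 0.39 to 2.19), or 2.45-fold, with an adjusted p of 0.816 in limma. Leaving out control siRNA replicate 1 gave 0.95, and leaving out CTNNB1 siRNA replicate 1 gave 0.89. Without both arrays the difference was 0.55, with an adjusted p of 0.424 in limma.

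The bases upstream of FOS are shown because its groups did not overlap, and those of JUN, JUND and EGR1 are given for comparison with their own results. Sequences are the 250 bases before the gene start in RefSeq, GRCh38.p14, written 5′ to 3′ on the gene's strand. Capitals mark every match, on either strand, to 5 motifs. These were TGACGT, the core of the cAMP response element; TGACNTCA, an 8-base AP-1 and ATF site, which overlaps TGACGT where N is G; TGANTCA, the 7-base AP-1 site; GCGNGGGCG, an EGR site; and the CArG box, the core of the serum response element bound by SRF. The stretch before FOS (chr14:75278578-75278827, plus strand) has TGACGT on its plus strand, 64 to 59 bases before the start.
FOS: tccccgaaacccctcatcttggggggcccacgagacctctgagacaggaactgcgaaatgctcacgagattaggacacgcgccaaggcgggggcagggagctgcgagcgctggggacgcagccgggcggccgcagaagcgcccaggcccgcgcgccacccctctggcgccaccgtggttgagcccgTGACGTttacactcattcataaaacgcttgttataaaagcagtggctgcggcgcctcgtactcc

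Of 34943 promoter windows of this length, 7.09% held TGACGT, 6.86% TGACNTCA, 6.59% TGANTCA, 8.39% GCGNGGGCG and 1.16% a CArG box. Upstream windows were at hand for 7 of the 9 measured members, not for FOSL1 and EGR3. TGACGT was in 5 of the 7 (FOS, FOSB, FOSL2, JUND and EGR1), in FOSB 60 to 55 and in FOSL2 66 to 61 bases before the start. TGACNTCA was in JUN and JUND, the CArG box and the EGR site in EGR1, and TGANTCA in 0 of the 7 windows. These are matches of letters and not measured binding. Bases further upstream than 250 were not searched, so a gene without a match here may hold a CArG box or another site there.

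FOSB, FOSL1 and FOSL2 encode the other FOS family subunits, of which FOSL1 (Fra-1) and FOSL2 (Fra-2) lack the strong activation domain of FOS. FOSL2 was 7.89, 8.69 and 8.64 in the controls and 8.62, 8.82 and 8.91 after CTNNB1 siRNA. The groups overlapped, with control siRNA replicate 1 alone well below the rest. The log2 difference of FOSL2 was 0.38 (SE 0.23, adjusted p = 0.816 in limma), and 0.12 without that control.

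FOSL1 was 8.04, 8.19 and 8.06 in the controls and 7.22, 8.15 and 8.19 after CTNNB1 siRNA. Its 3 controls and CTNNB1 siRNA replicates 2 and 3 lay within a narrow band, and CTNNB1 siRNA replicate 1 lay below all of them. The log2 difference of FOSL1 was -0.25 (SE 0.26, adjusted p = 0.843 in limma) and turned to 0.073 without CTNNB1 siRNA replicate 1. The 95% confidence interval over all arrays, -0.84 to 0.35, still allows a fall to 0.557 of the control level.

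FOSB was 5.45, 5.51 and 5.31 in the controls and 5.38, 5.46 and 5.90 after CTNNB1 siRNA. CTNNB1 siRNA replicate 3 alone lay outside the control range, and the difference was 0.16 (SE 0.17, adjusted p = 0.850 in limma). Without that array it was -0.0061. FOSB was fairly dim, at the 42.1st percentile of mean levels among tested clusters, where RMA compresses differences.

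JUN, JUNB and JUND encode the AP-1 subunits that can pair with each other as well as with FOS proteins. JUND is the member of the family that is usually expressed steadily rather than induced. It was 7.59, 7.45 and 7.38 in the controls and 7.83, 8.02 and 7.85 after CTNNB1 siRNA, and every silenced array was above every control. The means were 7.47 ± 0.10 (SD, n = 3) and 7.90 ± 0.11 (SD, n = 3). This log2 difference of 0.43 (SE 0.14, 95% confidence interval 0.11 to 0.74) was 1.35-fold, with an adjusted p of 0.816 in limma. The difference of JUND lay between 0.37 and 0.48 with any 1 array left out. Without both first replicates it was 0.52, with an adjusted p of 0.513 in limma.

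JUN, which encodes the strongest activator of the family, was 7.39, 8.29 and 7.97 in the controls and 8.90, 8.40 and 8.26 after CTNNB1 siRNA. The groups overlapped by a narrow margin, since control siRNA replicate 2 lay just above CTNNB1 siRNA replicate 3. The log2 difference of JUN was 0.64 (SE 0.26, 95% confidence interval 0.034 to 1.24), or 1.56-fold, with an adjusted p of 0.816 in limma. Leaving out control siRNA replicate 1 gave 0.39, leaving out CTNNB1 siRNA replicate 1 gave 0.45, and leaving out both gave 0.20.

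JUNB, whose product has often been found to restrain JUN, was 7.07, 7.89 and 7.82 in the controls and 7.89, 8.09 and 8.23 after CTNNB1 siRNA. The groups met at 7.89, where control siRNA replicate 2 and CTNNB1 siRNA replicate 1 lay together. The log2 difference of JUNB was 0.47 (SE 0.23, adjusted p = 0.816 in limma), and 0.21 without control siRNA replicate 1.

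The windows before JUN and JUND are shown to set JUND, usually expressed steadily although higher on these silenced arrays, beside the inducible JUN. JUN (chr1:58784048-58784297, minus strand) has TGACATCA 67 to 60 bases before the start. JUND (chr19:18281623-18281872, minus strand) has the palindrome TGACGTCA 200 to 193 bases before the start and a minus-strand match to TGACGT 87 to 82 bases before it.
JUN: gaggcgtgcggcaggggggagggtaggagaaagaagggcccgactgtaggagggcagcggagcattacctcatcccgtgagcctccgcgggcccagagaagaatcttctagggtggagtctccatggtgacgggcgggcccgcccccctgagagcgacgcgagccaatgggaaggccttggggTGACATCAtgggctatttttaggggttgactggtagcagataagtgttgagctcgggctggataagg
JUND: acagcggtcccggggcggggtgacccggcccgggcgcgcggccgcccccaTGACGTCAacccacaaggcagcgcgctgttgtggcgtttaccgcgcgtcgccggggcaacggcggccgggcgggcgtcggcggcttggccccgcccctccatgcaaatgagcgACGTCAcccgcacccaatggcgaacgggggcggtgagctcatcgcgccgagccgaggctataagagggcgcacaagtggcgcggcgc

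**Figure D2:**
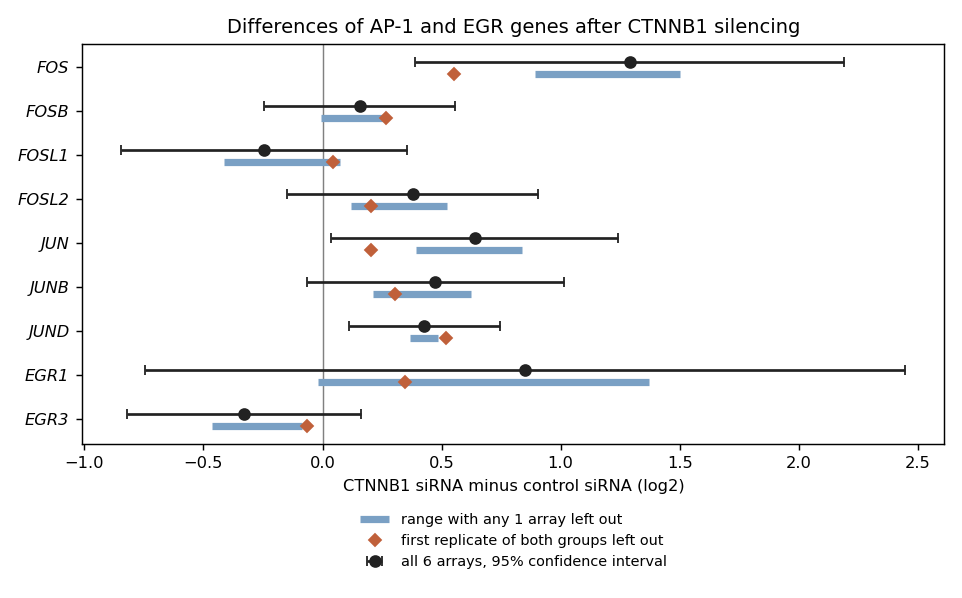
Log2 difference, CTNNB1 siRNA minus control siRNA, of each gene: black points and bars are all 6 arrays with the 95% confidence interval of the limma fit, blue bars the range when any 1 array is left out, and orange diamonds the value without the first replicate of both groups. The bar of JUND is short (0.37 to 0.48), that of EGR1 is long (-0.020 to 1.37), and the diamonds of FOS and JUN lie below their blue bars.

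EGR1 encodes a zinc finger factor that responds to growth factor signalling, and of the 9 members it had the widest span among the controls. It was 7.56, 10.00 and 10.34 in the controls and 9.41, 10.30 and 10.74 after CTNNB1 siRNA. The controls alone spanned 2.79, more than the 1.32 spanned by the silenced arrays, and the groups overlapped. The log2 difference of EGR1 was 0.85 (SE 0.69, 95% confidence interval -0.74 to 2.45), with an adjusted p of 0.819 in limma. Without control siRNA replicate 1 it was -0.020, and without control siRNA replicate 3 it was 1.37. Without both first replicates it was 0.35. The EGR1 difference thus depended on which arrays were kept, and its sign turned only without control siRNA replicate 1 alone.

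The window before EGR1 (chr5:138465229-138465478, plus strand) is shown because, of the 7 windows of measured members, it alone holds CArG boxes. They are CCATATTAGG, 105 to 96 bases before the start, and CCATATATGG, 83 to 74 bases before it. Minus-strand matches to TGACGT lie 136 to 131 and 67 to 62 bases before the start, and an EGR site, GCGCGGGCG, 198 to 190 bases before it.
EGR1: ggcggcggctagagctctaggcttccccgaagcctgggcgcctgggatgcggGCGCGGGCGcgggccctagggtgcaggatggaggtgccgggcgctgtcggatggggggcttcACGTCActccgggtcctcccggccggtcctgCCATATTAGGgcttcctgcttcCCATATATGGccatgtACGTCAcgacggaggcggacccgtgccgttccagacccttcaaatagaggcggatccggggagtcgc

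EGR3, a related factor that EGR1 itself can induce in other cells, was 5.14, 5.08 and 5.08 in the controls and 4.28, 5.04 and 4.99 after CTNNB1 siRNA. Every silenced array lay below every control, and CTNNB1 siRNA replicate 1 was far below the others. The log2 difference of EGR3 was -0.33 (SE 0.21, adjusted p = 0.816 in limma) over all arrays and -0.087 without CTNNB1 siRNA replicate 1. Its mean lay at the 33.4th percentile of tested clusters, among the dimmest 40%, where RMA compresses differences.

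Several members shared their high and low arrays. Control siRNA replicate 1 lay at least 0.5 below both other controls for 5 of 9 members (FOS, FOSL2, JUN, JUNB and EGR1), which was so for 2.96% of all tested clusters. CTNNB1 siRNA replicate 1 lay at least 0.5 above both other silenced arrays for FOS and JUN, and at least 0.5 below both for FOSL1, EGR1 and EGR3, against 10.3% and 11.1% of all clusters. This step of 0.5 was chosen after the values were seen. On CTNNB1 siRNA replicates 2 and 3, the level against the control mean was 0.87 and 0.92 for FOS, 0.52 and 0.38 for JUN, 0.50 and 0.63 for JUNB, and 0.55 and 0.37 for JUND. On the same 2 arrays it was 0.052 and 0.094 for FOSL1. The control mean includes control siRNA replicate 1, which was low for FOS, JUN and JUNB. Without both first replicates the differences were 0.55 for FOS, 0.20 for JUN, 0.30 for JUNB, 0.52 for JUND and 0.045 for FOSL1. The part of either first replicate in these differences was not tested beyond leaving it out.

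**Figure D3:**
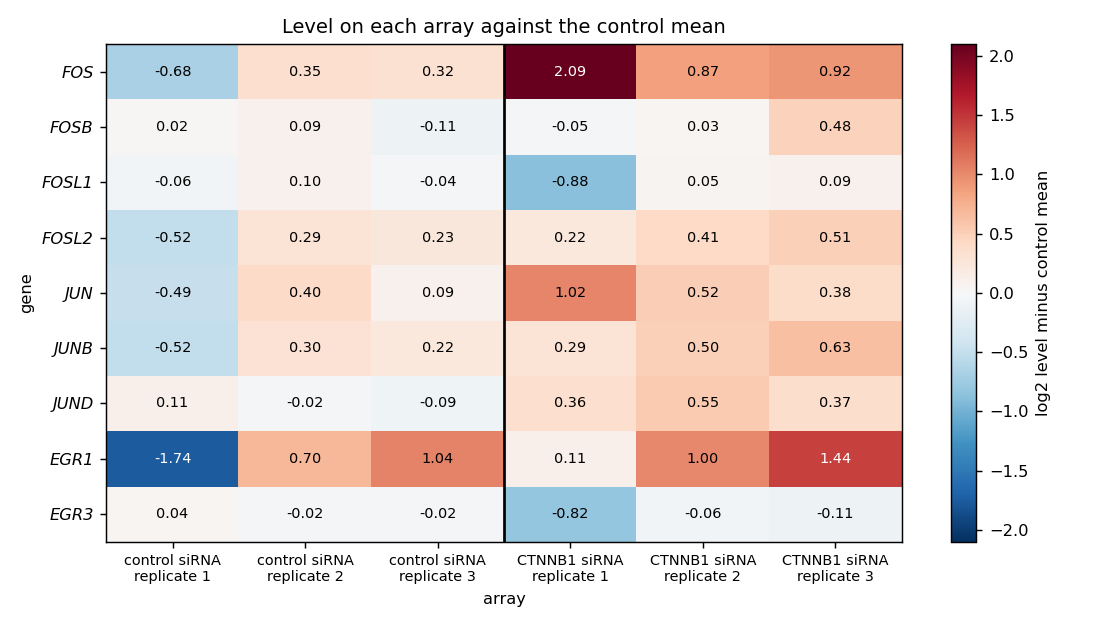
Log2 level of each gene on each array minus the mean of the 3 control arrays, with red above and blue below that mean and the value printed in each cell. Control siRNA replicate 1 is at -0.68 for FOS and -1.74 for EGR1, and CTNNB1 siRNA replicate 1 is at 2.09 for FOS and -0.88 for FOSL1.

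Lists of genes related to these factors were compared in the same fit. No gene of any of these 7 lists passed limma at an adjusted p under 0.05 over all clusters. Of all clusters, 5.64% had an unadjusted limma p under 0.05 and 13.6% had groups that did not overlap. These are the shares to set beside the counts of each list. The lists were chosen with earlier results of these data known, so the counts are descriptions and not tests. Other immediate early genes, which respond to the same signals, were higher for 12 of 16 measured members, with a median log2 difference of 0.25 (-0.0045 over all clusters). At an unadjusted p under 0.05, 3 were higher and 0 lower, and the groups did not overlap for 5 higher members and 1 lower. DUSP1, a phosphatase gene that shuts off MAP kinases, was 6.14, 6.79 and 6.61 in the controls and 8.33, 7.92 and 7.59 after CTNNB1 siRNA. Each silenced array of DUSP1 was above each control. Its log2 difference was 1.44 (SE 0.24, adjusted p = 0.477 in limma), and 1.06 without both first replicates. KLF6, a zinc finger factor gene, differed by 0.78 (SE 0.20), and MCL1, which encodes a survival protein of the BCL2 family with a short half-life, by 0.72 (SE 0.24). SGK1, a kinase gene, differed by -0.29 (SE 0.15). Without both first replicates KLF6 was at 0.55, MCL1 at 0.33 and SGK1 at -0.16. The other genes without overlap, named after their values were seen, were IER2 (1.05, SE 0.57) and PHLDA1 (0.36, SE 0.18). Without both first replicates IER2 was at 0.17 and PHLDA1 at 0.18. IER2, at 6.70, 6.90 and 7.14 in the controls and 9.52, 7.18 and 7.21 after CTNNB1 siRNA, was highest on CTNNB1 siRNA replicate 1 and differed by 0.28 without it. The list's median ranged from 0.062 to 0.39 over the fits with 1 array left out, lowest without control siRNA replicate 1, and was 0.083 without both first replicates.

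Among other AP-1 zipper genes, which encode alternative partners of FOS and JUN, 7 of 10 measured members were higher and 3 lower, with a median of 0.059, and 0 had an unadjusted limma p under 0.05. The groups did not overlap for 2 members, MAFF, a small MAF gene (0.41, SE 0.19), and BATF3 (0.27, SE 0.15), both higher. ATF3, a stress-induced repressor gene, differed by 0.56 (SE 0.27), and by 0.11 without both first replicates. ATF7 differed by -0.46 (SE 0.31), and by -0.063 without CTNNB1 siRNA replicate 1. Without both first replicates MAFF was at 0.14, BATF3 at 0.13 and the list's median at 0.0055. JDP2 and BATF are the next 2 protein-coding genes after FOS on its chromosome in the RefSeq gene order. JDP2 differed by 0.068 (SE 0.17) and BATF by 0.046 (SE 0.18), and the groups overlapped for both. Of the EGR partners, the corepressor genes NAB2 (0.16, SE 0.13) and NAB1 (0.075, SE 0.12) had groups that did not overlap, and EGR4 differed by 0.031 (SE 0.15).

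Of the kinases and promoter factors upstream, 5 of 15 measured members were higher and 10 lower, with a median of -0.11. The median was 0.0012 without control siRNA replicate 1, 0.0092 without CTNNB1 siRNA replicate 1 and -0.0050 without both, so its direction rested on those arrays. MAPK3, which encodes the kinase ERK1, was 9.41, 9.62 and 9.59 in the controls and 9.85, 9.83 and 10.10 after CTNNB1 siRNA. It was the 1 gene of this list whose groups did not overlap, with a difference of 0.39 (SE 0.15, adjusted p = 0.816 in limma). SRF, whose product binds CArG boxes, was 8.98, 8.22 and 8.13 in the controls and 7.81, 8.19 and 8.21 after CTNNB1 siRNA. Its highest value was on control siRNA replicate 1 and its lowest on CTNNB1 siRNA replicate 1, the reverse of the order seen for FOS. The difference of SRF was -0.37 (SE 0.25), and 0.026 without both arrays. MAP2K2, encoding the kinase MEK2, differed by 0.33 (SE 0.20) and MRTFB, a cofactor gene of SRF, by -0.52 (SE 0.32). Without both first replicates these were 0.058 and -0.11.

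Genes that control the decay of AU-rich mRNAs, such as that of FOS, or the turnover of JUN protein were higher for 3 of 8 and lower for 5, with a median of -0.13, and -0.042 without CTNNB1 siRNA replicate 1. ZFP36L1, which encodes a decay factor, was 10.54, 10.79 and 10.59 in the controls and 9.13, 10.41 and 10.39 after CTNNB1 siRNA, without overlap. Its difference was -0.66 (SE 0.33, adjusted p = 0.816 in limma), and -0.24 without CTNNB1 siRNA replicate 1. ELAVL1, encoding the stabilising protein HuR, differed by -0.33 (SE 0.15), also without overlap. KHSRP, another decay factor gene, was at -0.30 (SE 0.20), or -0.16 when control siRNA replicate 1 was left out. COP1, a ubiquitin ligase gene for JUN, differed by 0.32 (SE 0.23), and by 0.060 without CTNNB1 siRNA replicate 1.

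Known AP-1 target genes showed no common direction, since of 19 measured genes 10 were higher and 9 lower, with a median of 0.0040. At an unadjusted limma p under 0.05, 2 were higher and 1 lower, and the groups did not overlap for 3 higher genes and 2 lower. PLAUR, the urokinase receptor gene, was 8.18, 8.56 and 8.51 in the controls and 9.13, 9.37 and 9.47 after CTNNB1 siRNA. Its difference, 0.90 (SE 0.17, adjusted p = 0.626 in limma), was 0.88 without both first replicates. LAMB3, a laminin-332 chain gene, differed by 0.61 (SE 0.13, adjusted p = 0.816), and by 0.56 without those arrays. MMP1, the interstitial collagenase gene and a classical AP-1 target, was instead 11.89, 11.73 and 11.63 in the controls and 10.92, 11.54 and 11.41 after CTNNB1 siRNA. Its groups did not overlap, and its difference was -0.46 (SE 0.19, adjusted p = 0.816 in limma). CCND1, the cyclin D1 gene, differed by -0.31 (SE 0.16). Without both first replicates MMP1 was at -0.20 and CCND1 at -0.12. Of the 19 genes, 10 were among the dimmest 40% of clusters.

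EGR1 target genes were higher for 6 of 8 measured members and lower for 2, with a median of 0.27, and 0 had an unadjusted limma p under 0.05. The median was 0.15 without CTNNB1 siRNA replicate 3, 0.18 without control siRNA replicate 1 and 0.18 without both first replicates. PDGFB, a growth factor gene, differed by 0.27 (SE 0.13), and F3, the tissue factor gene, by 0.27 (SE 0.14). The groups did not overlap for either gene. THBS1, encoding thrombospondin, was 8.12, 6.75 and 6.98 in the controls and 6.56, 6.71 and 6.59 after CTNNB1 siRNA, with control siRNA replicate 1 far above the other arrays. The groups of THBS1 did not overlap either, with the silenced arrays lower. Its difference was -0.66 (SE 0.33), and -0.24 without control siRNA replicate 1. PDGFA differed by 0.30 (SE 0.19) with overlapping groups. Its difference was 0.16 without control siRNA replicate 3 and 0.55 without both first replicates.

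**Figure D4:**
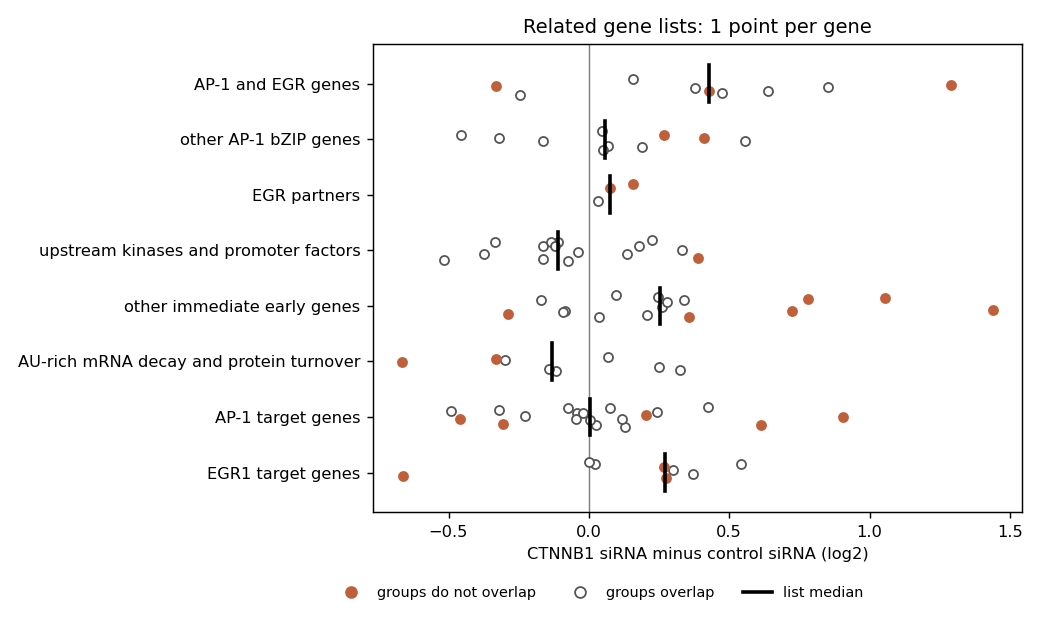
Log2 difference, CTNNB1 siRNA minus control siRNA, of each measured gene of the AP-1 and EGR set and of 7 related lists; filled points are genes whose groups do not overlap, open points genes whose groups overlap, and black lines list medians. The medians are 0.43 for the AP-1 and EGR genes, 0.25 for other immediate early genes, 0.27 for EGR1 targets and 0.0040 for AP-1 targets; without the first replicate of both groups they are 0.27, 0.083, 0.18 and -0.019.

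Genes whose array pattern was most like that of 4 members were sought by root mean square distance. The distance was between log2 values centred on their mean over the 6 arrays. Compared were the 11084 genes outside the dimmest 40%, with a mean over all arrays of at least 5.36. A distance well under the member's own root mean square deviation means a close match. For FOS, with a deviation of 0.830, the nearest were HKDC1 at 0.215, EML2 at 0.253 and SGK2 at 0.253. For JUN, with 0.456, they were PNRC1 at 0.0661, ITPKC at 0.0906 and RNF19B at 0.106. For FOSL1, with 0.345, they were FOXJ2 at 0.0364, ZDHHC12 at 0.0373 and AMZ2 at 0.0473, each of them lowest on CTNNB1 siRNA replicate 1. For EGR1, with 1.05, they were SLC7A11 at 0.435, KLHL24 at 0.439 and HBEGF at 0.443. HBEGF, an EGF family ligand gene, was 7.10, 8.57 and 8.99 in the controls and 8.36, 8.48 and 9.09 after CTNNB1 siRNA. Like EGR1, it was lowest on control siRNA replicate 1. The 6 arrays are shared by all these genes.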

How the data were processed

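RNA (500 ng per sample) from 6 samples was hybridised to 1 array each. Per the submitters' processing notes, the authors ran RMA with Affymetrix Expression Console 1.1, and the deposited log2 values give 1 level for each transcript cluster. RMA forces a common intensity distribution on the arrays, so a change shared by all genes would not show. Neither build nor annotation is given in the sources used here. The number of arrays limits the precision.

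Of 33297 clusters, 19460 were paired with exactly 1 gene symbol in the platform annotation and were tested; 1754 with several symbols and 12083 with none were left out. Symbols were updated by gene identifier for 19429. Where a gene had several clusters, the one with the highest mean stood for it. The groups were compared with limma 3.58.1 in R 4.3.3 (lmFit, eBayes, 2-sided, Benjamini-Hochberg over all tested clusters, threshold 0.05), without a block, weights or filter. The fit was also tested on simulated arrays with independent noise. No simulated array was made to stand apart as CTNNB1 siRNA replicate 1 does, so that test does not cover this feature. Differences are CTNNB1 siRNA minus control siRNA. Named were all members, CTNNB1, up to 4 genes of smallest p from each of 7 lists, and 3 genes of like pattern for 4 members. Members and lists were chosen with earlier results of these data known. HBEGF, JDP2 and BATF are list genes as well. Alternatives were a filter on the dimmest 40% of clusters, the replicate number as a block, array weights, an intensity trend, median centring, 1 cluster per gene and leaving out arrays. Promoter sequences are from RefSeq.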

Additional observations from a re-analysis of the deposited data

How the results depend on the processing

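The count of members past the threshold in limma was 0 under every alternative run, with adjusted p-values of 0.301 to 0.997, and the median difference of the members (0.43) was positive under each, at 0.17 to 0.52 with 1 array left out, lowest without control siRNA replicate 1, and 0.27 without both first replicates. The filter, the replicate block, the intensity trend and 1 cluster per gene leave a member's difference unchanged, so they cannot turn its direction. Counting these, 111 of 116 alternative differences of single members kept their direction. The others were FOSB without CTNNB1 siRNA replicate 3 (-0.0061; up to 0.26 with another array left out), EGR1 without control siRNA replicate 1 (-0.020; up to 1.37), and FOSL1 (down to -0.42 without CTNNB1 siRNA replicate 3), which was 0.010 with array weights, 0.073 without CTNNB1 siRNA replicate 1 and 0.045 without the first replicate of both groups, an alternative chosen after seeing the data. Over all clusters, 1 was called, against 0 without the dimmest 40%, 0 with the replicate block, 13 with array weights, 0 to 10 when 1 array was left out and 2 without both first replicates. Arrays of the same number deviated together only weakly (correlations of 0.092, 0.12 and 0.098), so the numbers were not taken as pairs. With the replicate block 0 members passed, and 4 had an unadjusted limma p under 0.05, against 3 in the main fit. With that block the unadjusted limma p went from 0.253 to 0.04 for EGR1, from 0.077 to 0.0332 for JUNB and from 0.0407 to 0.0707 for JUN. No member had a second cluster to compare. No detection values were used, so how far dim genes such as EGR3 lie above background is not shown.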
